A study of Mus musculus with 6 samples.

Results

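Bone marrow cells grown with granulocyte-macrophage colony-stimulating factor (GM-CSF), called GM-BMDM in the labels, were compared after 3 h with interleukin-6 (IL6) and without IL6. The comparison used 2 of the 6 RNA sequencing libraries of the series, 1 per group, chosen by their labels, and the 55536 rows of the count table that carried a gene name. The mice were C57BL/6 and 8 weeks old, with no genetic change given, and the marrow was cultured for 7 days. The other libraries were macrophages grown with macrophage colony-stimulating factor (M-BMDM) with IL6 for 3 h or 24 h, M-BMDM without IL6, and uncultured bone marrow. The dose of IL6, the number of mice behind a library and whether mice were pooled were not given in the sources used here.

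IL6 binds its receptor, encoded by Il6ra, and the complex recruits the signalling chain gp130, encoded by Il6st. The kinases Jak1, Jak2 and Tyk2 on gp130 then phosphorylate the transcription factor Stat3, which enters the nucleus. Among the best known early Stat3 targets is Socs3, whose protein binds gp130 and ends the signal. GM-CSF signals through Csf2ra and Csf2rb to Jak2 and Stat5, with Cish and Socs2 as its own feedback genes, and it gives marrow cultures features of both macrophages and dendritic cells.

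The 2 libraries held 20234880 counts for GM-BMDM with IL6 for 3 h and 24134374 counts for GM-BMDM, within the range of 18511777 to 24134374 over the series. Levels are given as scaled CPM, which are counts set to a common library size after library sizes were scaled by edgeR's TMM factors, which were 0.905 for GM-BMDM with IL6 for 3 h and 0.901 for GM-BMDM. The mitochondrial share of counts was 3.06% with IL6 and 3.15% without. The macrophage genes Adgre1 (269 CPM with IL6 and 257 CPM without), Cd68 (931 and 1016 CPM) and Itgam (1701 and 1661 CPM) were high in both libraries. The dendritic cell gene Itgax was also high, at 987 CPM with IL6 and 994 CPM without, whereas Flt3, which marks conventional dendritic cells and their precursors, had only 3 and 7 counts. Genes that mark GM-CSF cultures were present in both libraries, with Chil3 at 859 CPM with IL6 and 982 CPM without, and Ccl17 at 202 CPM with IL6 and 184 CPM without. Some markers that define other cells were near 0, with 3 counts with IL6 and 0 without for Cd3e of T cells, 0 and 0 counts for Epx of eosinophils, and 2 and 1 counts for Mpo of neutrophil precursors. Other genes of such lists were not at 0, for example Mmp8 of mature neutrophils at 555 CPM with IL6 and 513 CPM without, and Vwf of megakaryocytes and endothelium at 473 and 444 CPM.

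The transcriptome of GM-BMDM with IL6 for 3 h was almost the same as that of GM-BMDM. Of 10255 genes with at least 5 CPM in the higher library, 93.2% were within 1.25-fold and 98.9% within 1.5-fold of their level without IL6. Only 6 genes (0.0585% of those compared) were at least 2-fold higher with IL6, and 11 (0.107%) were at least 2-fold lower. At 1.5-fold, 33 genes (0.322%) were higher and 77 (0.751%) lower. Counting a gene needed a 95% Clopper-Pearson interval of the ratio that excluded 1. These intervals cover counting error only, and with 1 library per group no difference has a replicate check or a p-value.

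For scale, the same rule found 1186 genes higher and 921 lower in M-BMDM after 24 h of IL6 against M-BMDM, and 1134 genes higher and 907 lower in GM-BMDM against M-BMDM. The log2 ratios of the GM-BMDM pair had an SD of 0.194 across genes, against 0.101 that counting alone would give. The intervals of 30.5% of genes excluded 1, mostly for differences under 1.25-fold. Spread between separate libraries without any treatment was not measured. The genes past 1.5-fold were mainly low in level, with a median of 6.99 CPM for the higher ones and 7.63 CPM for the lower ones, against 35.1 CPM for all 10255 genes. Only 6 of the 33 higher and 24 of the 77 lower genes reached 10 CPM.

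**Figure D1:**
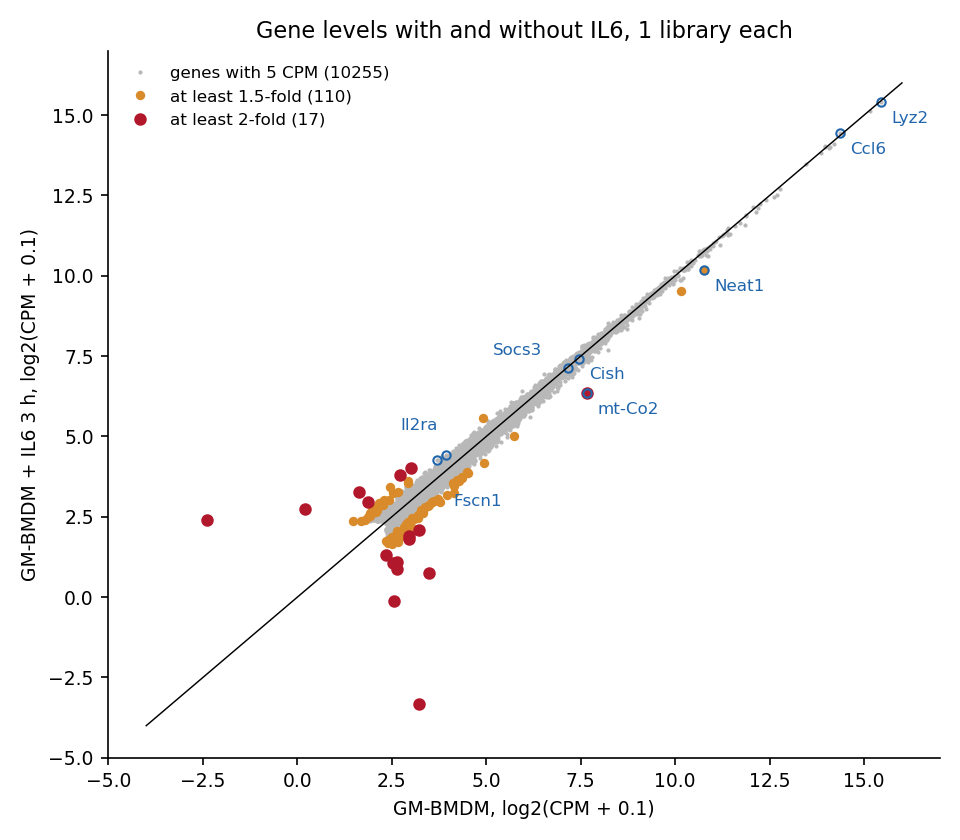
Level of each gene in GM-BMDM with IL6 for 3 h (vertical axis) against GM-BMDM (horizontal axis), as log2 of CPM plus 0.1. Points are genes with 5 CPM in the higher library, the line marks equal levels, the 110 genes past 1.5-fold and the 17 past 2-fold are coloured, and Socs3 and Cish lie on the line.

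The receptor and kinase genes of the IL6 pathway were present at nearly equal levels in both libraries. Il6ra (chr3:89864059-89913196, GRCm38) had 38.4 CPM with IL6 and 36.2 CPM without, a log2 ratio of 0.08 with an interval of -0.06 to 0.23. Il6st (chr13:112464070-112510086) had 137 CPM with IL6 and 118 CPM without, a log2 ratio of 0.22 (0.14 to 0.30). Per kilobase of transcript, Il6st stood at 26.4 CPM with IL6 and 22.7 CPM without, above Il6ra at 11.5 and 10.8 CPM. Both chains of the receptor were thus measured in each library, at levels well above the filter.

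Among the kinases, Jak1 had 255 CPM with IL6 and 234 CPM without (log2 0.13, 0.07 to 0.18). Jak2 had 86.1 CPM with IL6 and 92.9 CPM without (log2 -0.11, -0.21 to -0.01). Tyk2 had 84.6 CPM with IL6 and 79.7 CPM without (log2 0.09, -0.01 to 0.19). None of the 3 kinases differed by as much as 1.25-fold. Stat3 itself (chr11:100885098-100939540), which is one of its own targets, had 143 CPM with IL6 and 131 CPM without (log2 0.12, 0.04 to 0.20), and M-BMDM gave the same log2 ratio of 0.12 (0.05 to 0.19). The phosphatase gene Ptpn11, which encodes SHP2 on gp130, had 133 CPM with IL6 and 118 CPM without (log2 0.18, 0.10 to 0.26).

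Socs3 (chr11:117966079-117970047, minus strand) had 2586 counts, or 141 CPM, with IL6 and 3086 counts, or 142 CPM, without. Its log2 ratio was -0.01 with an interval of -0.08 to 0.07, which excludes a rise of 1.25-fold in these 2 libraries. In M-BMDM Socs3 was also level, at 99.3 CPM with IL6 and 102 CPM without (log2 -0.03, -0.12 to 0.06). In the 1 library of M-BMDM with IL6 for 24 h, Socs3 had 7.60 CPM. The series held no GM-BMDM library at 24 h. At 3 h, 0 genes of the STAT3 target list with 5 CPM were 1.5-fold higher in either type, and 1 was 1.5-fold lower, in M-BMDM. No rise of a target gene thus checks the IL6 label of the 3 h libraries, and "with IL6" rests on that label alone. The other feedback inhibitors were close to level as well. Cish, which inhibits Stat5 signalling, had 172 CPM with IL6 and 174 CPM without (log2 -0.02, -0.09 to 0.05), and Socs1, a direct JAK inhibitor, had 20.1 and 19.9 CPM (log2 0.01, -0.19 to 0.21). Socs2 had 60.8 CPM with IL6 and 54.6 CPM without (log2 0.15, 0.04 to 0.27).

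The RefSeq promoter windows of Socs3 and Cish, 250 bases before to 50 after the annotated start (GRCm38.p6), are shown because both genes are textbook STAT targets that stayed level. Capitals mark matches to TTCNNNGAA, the core of a STAT binding site, which reads the same on both strands. Other motifs are not marked.
Socs3, chr11:117969317-117969616, minus strand: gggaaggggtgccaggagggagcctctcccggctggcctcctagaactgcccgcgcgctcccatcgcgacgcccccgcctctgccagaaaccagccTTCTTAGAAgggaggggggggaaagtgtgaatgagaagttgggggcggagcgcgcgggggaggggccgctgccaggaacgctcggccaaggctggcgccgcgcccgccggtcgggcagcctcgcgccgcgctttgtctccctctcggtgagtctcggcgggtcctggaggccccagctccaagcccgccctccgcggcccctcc
Cish, chr9:107296409-107296708, plus strand: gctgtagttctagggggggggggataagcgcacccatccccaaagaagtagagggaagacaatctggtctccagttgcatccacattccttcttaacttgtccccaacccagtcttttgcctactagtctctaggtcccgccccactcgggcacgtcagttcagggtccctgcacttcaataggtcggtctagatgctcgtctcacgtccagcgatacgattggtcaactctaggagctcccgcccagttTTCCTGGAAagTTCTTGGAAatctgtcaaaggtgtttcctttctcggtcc
The Socs3 window held 1 match, starting 154 bases before the RefSeq start. The Cish window held 2 that did not overlap, starting at positions 1 and 12, with the RefSeq start base counted as 1. The RefSeq start of Socs3 lay 681 bases, and that of Cish 633 bases, from the start in the annotation used for the gene positions. Of the 32 genes of the STAT3 target list with a promoter in the RefSeq table, 5 (15.6%) held a match, against 8.37% of 27025 promoters. A match to these letters describes the window and does not show that a factor bound it.

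The wider set of STAT3 feedback and target genes was equally level. All 35 members with 5 CPM were within 1.25-fold, their log2 ratios ran from -0.29 to 0.18, and the median over 39 analysed members was -0.02, against 0.02 for all 14719 genes analysed. Junb, an AP-1 transcription factor, had 169 CPM in both libraries. Bcl3, which modulates NF-kappaB, had 30.2 CPM with IL6 and 30.6 CPM without. Pim1, a survival kinase, had 316 CPM with IL6 and 312 CPM without. Myc, Mcl1 and Cebpd differed just as little, with log2 ratios of 0.03, 0.07 and 0.09.

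The lowest members with 5 CPM included acute phase genes. Hp, which encodes haptoglobin, had 60.6 CPM with IL6 and 74.2 CPM without (log2 -0.29, -0.40 to -0.18). Saa3, a serum amyloid gene, had 46.4 CPM with IL6 and 56.0 CPM without (log2 -0.27, -0.40 to -0.14). Hp is a classical IL6-induced gene in liver, and in GM-BMDM with IL6 both genes stood on the lower side. Timp1 was under the 5 CPM limit, with 40 counts with IL6 and 87 counts without (log2 -0.87, -1.45 to -0.32). Bcl6, a transcriptional repressor, had the highest ratio, at 10.4 CPM with IL6 and 9.15 CPM without, with an interval of -0.11 to 0.48 that included 0.

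**Figure D2:**
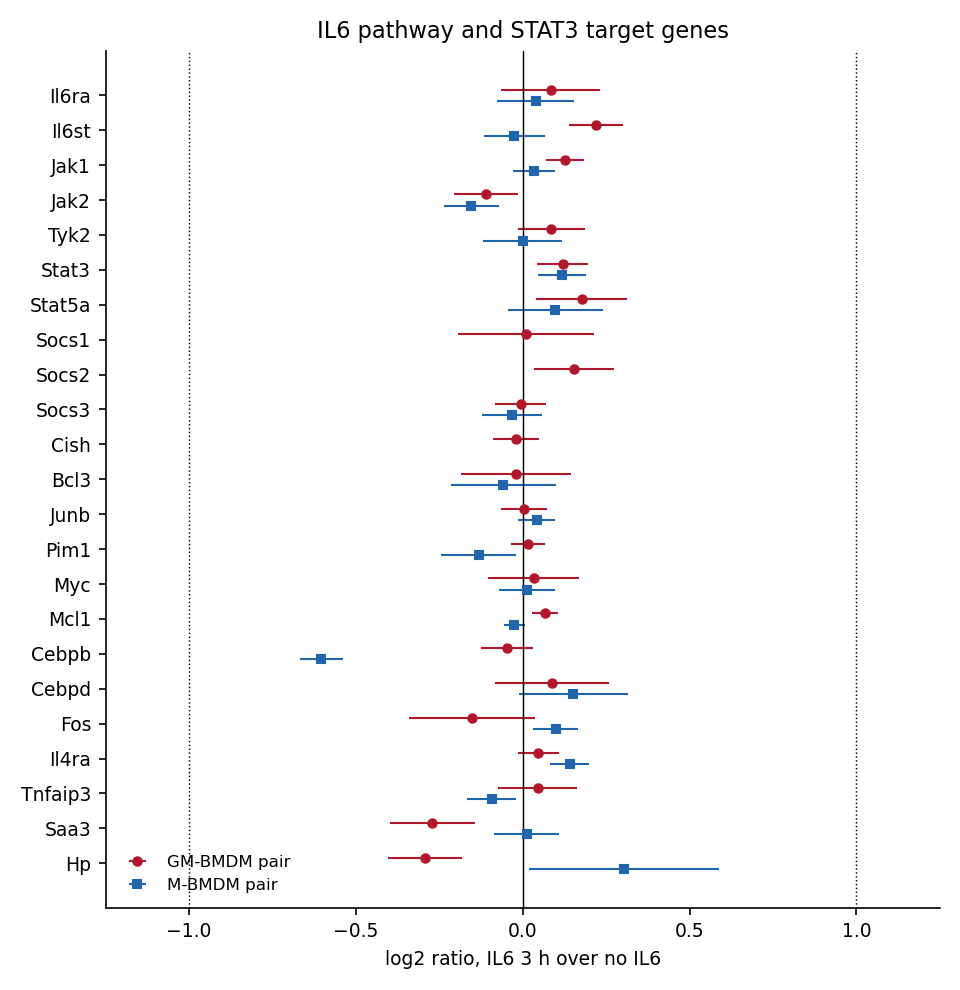
Log2 ratio of the library with IL6 for 3 h over the library without, for IL6 pathway and STAT3 target genes, with 95% counting intervals. Circles are the GM-BMDM pair, squares the M-BMDM pair where a gene had 5 CPM, and dotted lines mark 2-fold. Socs3 lies at -0.01 in GM-BMDM and at -0.03 in M-BMDM, and Cebpb lies at -0.05 in GM-BMDM and at -0.60 in M-BMDM.

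Transcripts of the IL6 cytokine family itself were few. Il6 had 13 counts with IL6 and 8 without, Il11 had 1 and 0, and Lif had 52 and 36. Osm, encoding oncostatin M, had 21.3 CPM with IL6 and 22.9 CPM without. Of the family's other receptors, Il11ra1 had 189 CPM with IL6 and 175 CPM without, Lifr had 3.61 and 3.40 CPM, and Osmr had 2 and 6 counts. The GM-CSF receptor chain Csf2ra had 476 CPM with IL6 and 554 CPM without (log2 -0.22, -0.26 to -0.18), and Csf2rb had 2723 and 2628 CPM (log2 0.05, 0.03 to 0.07). Csf2rb shares sequence with Csf2rb2, and the 2 together also stood at a log2 ratio of 0.04. Csf1r, the M-CSF receptor, had 1050 CPM with IL6 and 1068 CPM without.

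Over 41 gene lists with 907 distinct genes, the median log2 ratio lay within 0.1 of 0 for 33 lists. Of the 685 list genes with 5 CPM, 0 were at least 2-fold higher with IL6 and 1 was at least 2-fold lower, the mitochondrial gene mt-Co2, against 0.166% of all genes in either direction. At 1.5-fold, 0 were higher and 3 were lower: mt-Co2, the nuclear noncoding RNA Neat1 and the scavenger receptor gene Marco. Marco had 4.75 CPM with IL6 and 7.17 CPM without (log2 -0.59, -0.99 to -0.21).

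AP-1, EGR and immediate early genes, which many signals induce, were also near level, with 21 of 23 within 1.25-fold and a median of 0.03. Fos had 22.1 CPM with IL6 and 24.5 CPM without (log2 -0.15, -0.34 to 0.04), and the orphan nuclear receptor gene Nr4a3 had 466 and 435 counts (log2 0.35 after scaling, 0.16 to 0.54). All 17 STAT5 and GM-CSF response genes with 5 CPM were within 1.25-fold (median 0.01).

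Inflammatory genes lay close to 0 as well. All 20 NF-kappaB subunit and feedback genes were within 1.25-fold (median log2 -0.03), as were 16 of 18 pro-inflammatory genes with 5 CPM (median -0.07) and 16 of 17 chemokine ligand genes (median 0.03). Nfkbia, the inhibitor induced by NF-kappaB, had 103 CPM with IL6 and 107 CPM without. Tnf had 51.9 CPM with IL6 and 53.9 CPM without (log2 -0.05, -0.18 to 0.07). Il1b was a little lower, at 68.4 CPM with IL6 and 81.5 CPM without (log2 -0.25, -0.36 to -0.15). The interferon-stimulated genes had a median of -0.01, with 31 of 35 within 1.25-fold. Ifit2 had 7.10 CPM with IL6 and 9.24 CPM without (log2 -0.38, -0.71 to -0.05), and Gbp7 had 35.2 and 43.8 CPM (log2 -0.32, -0.46 to -0.17). In M-BMDM the interferon list had a median of -0.18.

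Genes of antigen presentation and dendritic cells lay slightly above 0. Over all 14719 genes analysed, 7847 had ratios above 0. Of 15 MHC class II and presentation genes, 12 had ratios above 0 (median 0.07), and 11 of 13 with 5 CPM were within 1.25-fold. The summed level of these 15 genes was lower with IL6, at 10541 CPM against 11172 CPM without. Ciita, the master activator of MHC class II genes, had 58.1 CPM with IL6 and 45.2 CPM without (log2 0.36, 0.23 to 0.49). It overlaps Dexi, which had 7.10 and 10.8 CPM. Its target H2-Ab1 had 540 and 513 CPM (log2 0.07, 0.03 to 0.11). Of 19 dendritic cell genes, 13 were above 0 and 6 below it (median 0.06). The lowest of those with 5 CPM stood at a log2 ratio of -0.24. The highest was Fscn1 (chr5:142960343-142973185), which encodes the actin bundler fascin of mature dendritic cells, with 19.2 CPM with IL6 and 12.8 CPM without (log2 0.58, 0.35 to 0.81). Other genes of mature dendritic cells, named after their values were seen, were higher by less. Ccl22, a chemokine for regulatory T cells, had 107 CPM with IL6 and 86.8 CPM without (log2 0.30, 0.21 to 0.39). Cd83 had 36.1 CPM with IL6 and 29.8 CPM without (log2 0.27, 0.12 to 0.43), and the lymph node homing receptor Ccr7 had 23.8 and 20.2 CPM (log2 0.24, 0.04 to 0.43). A change in the share of a cell type and a change in RNA per cell cannot be told apart in such bulk libraries.

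Genes of alveolar macrophages and PPAR-gamma lay slightly below 0, with 13 of 19 below it and a median of -0.10, against 0.04 in M-BMDM. Car4, a carbonic anhydrase, had 13.9 CPM with IL6 and 19.1 CPM without (log2 -0.46, -0.69 to -0.23). Ear2, an eosinophil-associated ribonuclease, had 50.1 CPM with IL6 and 64.2 CPM without (log2 -0.36, -0.48 to -0.24). Pparg itself was level, at 28.5 CPM with IL6 and 29.2 CPM without. Arg1, the arginase of alternatively activated macrophages, had 75.2 CPM with IL6 and 101 CPM without (log2 -0.42, -0.52 to -0.32), while its list as a whole had a median of 0.03 and 21 of 22 members within 1.25-fold.

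Metabolic and growth lists were flat. All 23 sterol synthesis genes, all 34 lysosomal genes and all 25 glycolysis and hypoxia genes with 5 CPM were within 1.25-fold, with medians of 0.03, 0.02 and -0.03. Scd1, a fatty acid desaturase, had 219 CPM with IL6 and 187 CPM without (log2 0.23, 0.16 to 0.29). Mitosis genes had a median of 0.00 but spread both ways. Mki67, the proliferation marker Ki-67, had 122 CPM with IL6 and 157 CPM without (log2 -0.36, -0.44 to -0.29), and Aurka, a spindle kinase, had 22.6 and 17.9 CPM (log2 0.33, 0.13 to 0.53). Ribosomal protein genes had a median of -0.05 in GM-BMDM, with 28 of 36 below 0, against 0.21 in M-BMDM.

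Lists for other cell types gave sums that were above 0 and nearly equal. Neutrophil precursor granule genes summed to 1286 CPM with IL6 and 1363 CPM without, most of it from the chaperone gene Calr (1148 and 1227 CPM), and megakaryocyte and platelet genes to 972 and 922 CPM. Mature neutrophil genes summed to 686 CPM with IL6 and 656 CPM without, erythroid genes to 74.8 and 77.7 CPM, B lineage genes to 88.3 and 91.1 CPM, and stromal and endothelial genes to 541 and 513 CPM. T and NK cell genes summed to 4.37 CPM with IL6 and 5.38 CPM without, with 10 and 8 of 18 genes at 0 counts.

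**Figure D3:**
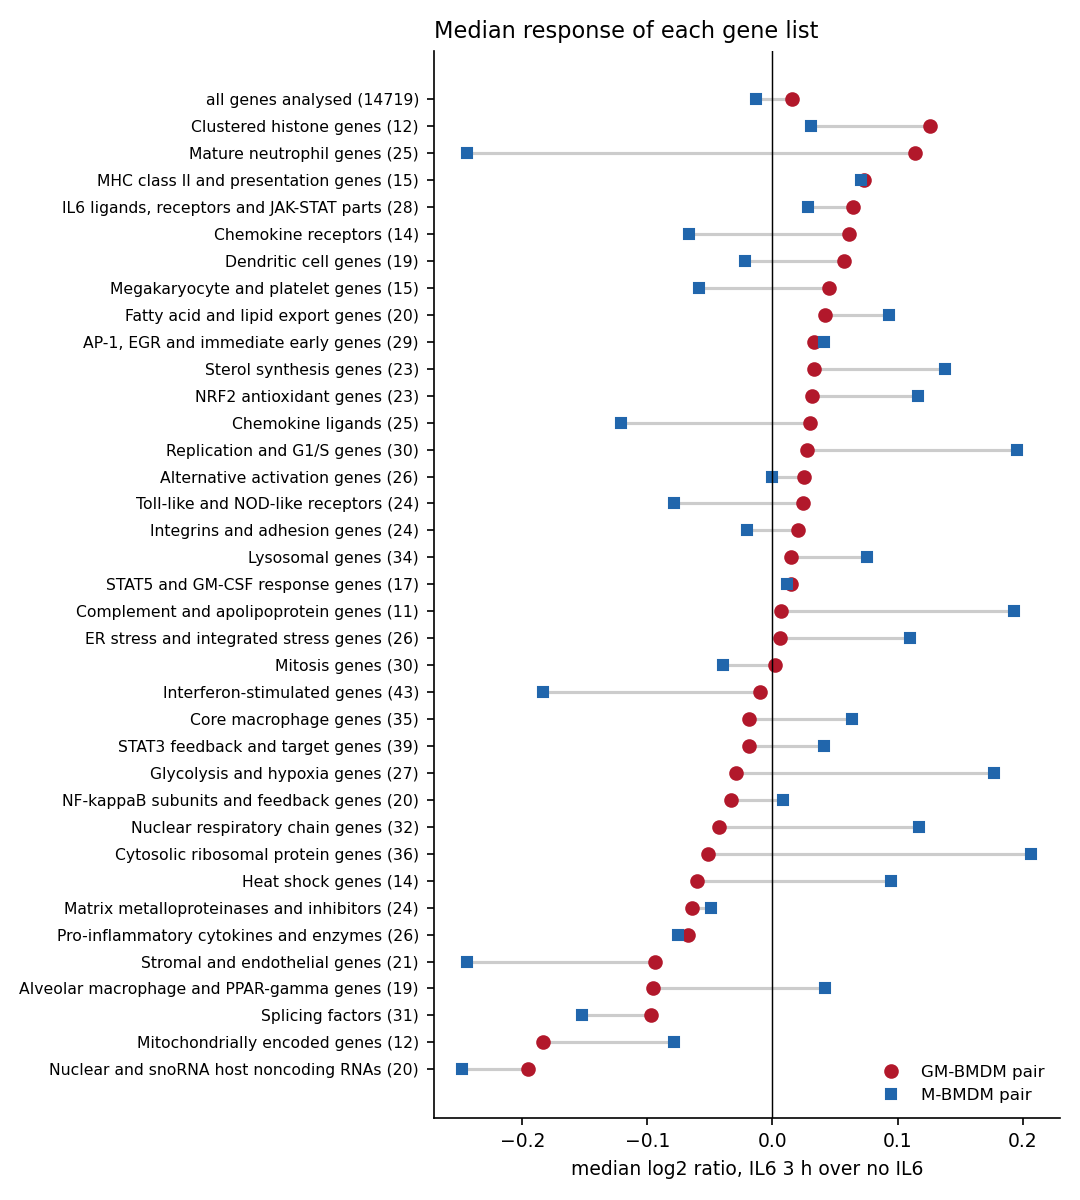
Median log2 ratio of the library with IL6 for 3 h over the library without, for each gene list with at least 5 members at 5 CPM, with the number of analysed members in brackets. Circles are the GM-BMDM pair and squares the M-BMDM pair, and the top entry is all genes analysed. The lowest GM-BMDM medians are the nuclear and snoRNA host noncoding RNAs at -0.20 and the mitochondrially encoded genes at -0.18.

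Among genes with at least 10 CPM and an established name on 1 row, the highest and lowest ratios stayed under 2-fold apart from mt-Co2. The highest were Ugt1a6b, a glucuronosyltransferase (220 counts with IL6 and 164 without, log2 0.67 after scaling), Entpd4b, a nucleotidase gene (47.3 and 30.1 CPM, log2 0.65), the motor protein gene Myo1d (11.6 and 7.45 CPM, log2 0.64) and Fscn1. Ugt1a6b shares sequence with 8 genes of its cluster, which together had 206 CPM with IL6 and 190 CPM without (log2 0.12). Il2ra (chr2:11642807-11693193), the alpha chain of the high-affinity IL2 receptor, had 21.4 CPM with IL6 and 15.1 CPM without (log2 0.50, 0.29 to 0.72), and 0 counts in M-BMDM with or without IL6. Sntb2, a syntrophin, had 38.5 CPM with IL6 and 27.7 CPM without (log2 0.47, 0.31 to 0.63), and the junction gene Jcad had 35.1 and 25.3 CPM (log2 0.47, 0.30 to 0.64).

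On the lower side, Gbp6, an interferon-induced GTPase, had 7.65 CPM with IL6 and 13.7 CPM without (log2 -0.84, -1.14 to -0.54), and with the related Gbp10 and Gm43302 it summed to 14.9 and 19.6 CPM (log2 -0.39). Nsrp1, a nuclear speckle splicing regulator, had 14.4 CPM with IL6 and 23.0 CPM without (log2 -0.68, -0.90 to -0.46). F13a1, the coagulation factor XIII subunit of macrophages, had 7.65 CPM with IL6 and 11.7 CPM without (log2 -0.62, -0.92 to -0.31).

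In absolute terms the largest gains and losses fell on very abundant transcripts with small ratios. The chemokine gene Ccl6 had 22131 CPM with IL6 and 20973 CPM without (log2 0.08), and Mmp12, a macrophage elastase, had 11504 and 11311 CPM (log2 0.02). Psap, which encodes the lysosomal prosaposin, had 17470 CPM with IL6 and 18906 CPM without (log2 -0.11). Ctss, the cathepsin of antigen processing, had 5833 CPM with IL6 and 6600 CPM without (log2 -0.18).

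The 17 genes past 2-fold mostly shared some transcript sequence with other annotated genes. Of these 17, 14 (82.4%) shared at least 20% of their transcript's 31-base words with other annotated genes, against 14.3% of 10251 genes with 5 CPM and a sequence. The median share over the 17 was 66.6%, and shares ran from 0% for Fam3b to 100% for Cd300ld5. A partner gene sharing at least 20% could be named for 12 of the 17, and for 9 of the 12 the sum over the gene and its partners was within 1.25-fold. Of all genes with 5 CPM, 93.2% were within 1.25-fold. A sum with an abundant partner also stays near level whatever the gene does. Gm49369, for example, had 13.8 CPM with IL6 and 6.44 CPM without, in a set with 36020 and 36480 CPM. The count of level sums therefore does not show how reads were assigned. How the counting assigned reads that fit several copies was not given in the sources used here, so the single ratios of such genes are uncertain.

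The plainest case was Srp54c, a copy of the signal recognition particle gene. It had 0 counts with IL6 and 202 counts without in GM-BMDM, and 136 counts with IL6 and 0 counts without in M-BMDM. Against a floor of 3 counts per library, the GM-BMDM log2 ratio was -5.83 or lower. Summed over Srp54a, Srp54b and Srp54c, the level was 136 CPM with IL6 and 158 CPM without (log2 -0.22). Entpd4 and Entpd4b share their sequence: Entpd4 had 17.8 CPM with IL6 and 30.9 CPM without (log2 -0.79), Entpd4b went the other way, and with their partner pseudogenes they summed to 104 and 102 CPM (log2 0.03). The 2 rows named Fam220a had log2 ratios of -2.81 and 1.01 and summed to 16.9 CPM with IL6 and 13.8 CPM without. Cd300ld5, a myeloid surface receptor gene, had a log2 ratio of -1.80, and with its 3 partners the log2 ratio was 0.24.

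The gene mt-Co2 encodes cytochrome c oxidase subunit 2 on the mitochondrial genome (chrM:7013-7696). It had 81.5 CPM with IL6 and 203 CPM without (log2 -1.32, -1.40 to -1.23), the only gene past 2-fold at 20 CPM or more. Its nuclear copy Gm28661 was identical over all 681 bases compared. The first 120 of 684 coding bases are shown, and all of them are shared with the copy.
mt-Co2, bases 1 to 120 of the coding region, GRCm38, plus strand: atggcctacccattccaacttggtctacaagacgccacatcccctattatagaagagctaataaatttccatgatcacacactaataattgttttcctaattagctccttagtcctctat
Summed over mt-Co2, Gm28661 and Gm13341, the level was 5672 CPM with IL6 and 6487 CPM without (log2 -0.19). Other mitochondrial genes lay on both sides of 0, with mt-Cytb at 3082 CPM with IL6 and 3694 CPM without (log2 -0.26) and mt-Nd1 at 2373 and 2282 CPM (log2 0.06). Of the 12 mitochondrially encoded genes analysed, 9 were below 0.

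For 5 of the 17 genes no partner could be named, and the highest of them reached 9.45 CPM. Fam3b, which encodes a secreted cytokine-like protein, had 95 counts with IL6 and 2 counts without, or 5.19 and 0.092 CPM, a log2 ratio of 5.82 (3.93 to 8.88). In M-BMDM it had 4.22 CPM with IL6 and 4.56 CPM without. Tgfb1i1, a focal adhesion adaptor, had 6.61 CPM with IL6 and 1.06 CPM without (log2 2.64, 1.99 to 3.36), and M-BMDM had 0.544 and 1.07 CPM. The M-BMDM pair did not repeat either difference. The other 3 were 2210418O10Rik, Psg16 and Ccdc112, with log2 ratios of 1.66, -1.08 and -1.06. In M-BMDM, 2210418O10Rik went the other way (log2 -1.09), while Psg16 (log2 -0.99, -1.35 to -0.64) and Ccdc112 (log2 -0.81, -1.39 to -0.23) were lower with IL6 as well. Ccdc112 had only 1.99 CPM with IL6 and 3.49 CPM without in M-BMDM.

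**Figure D4:**
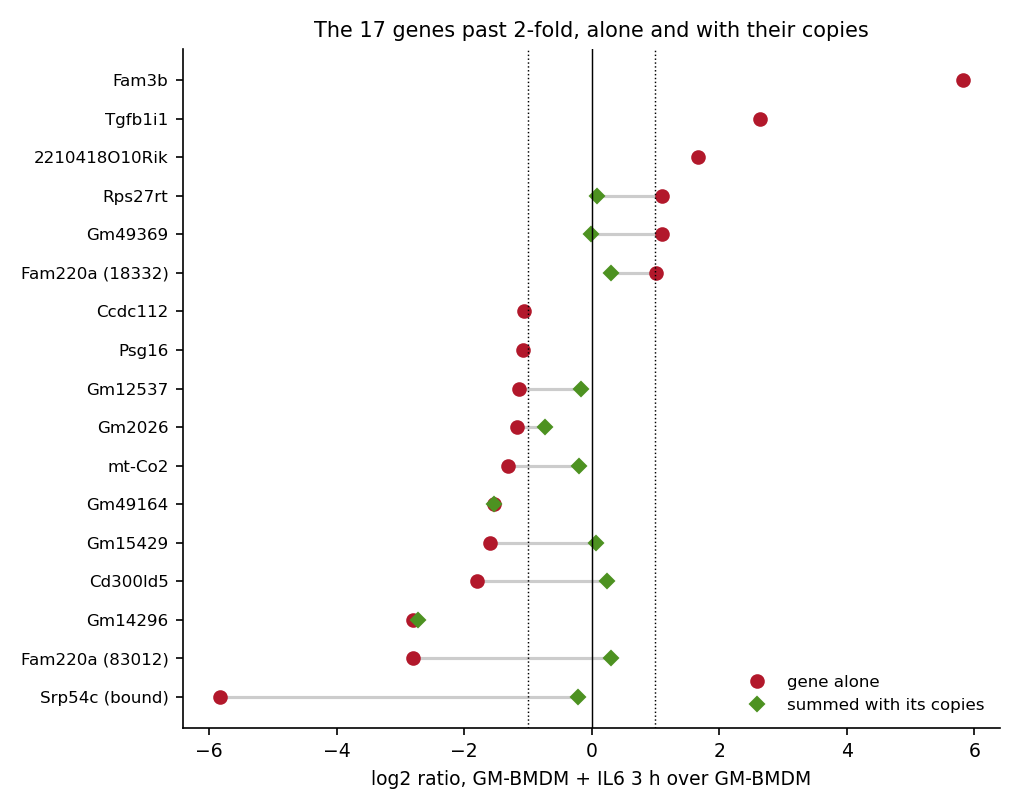
Log2 ratio of GM-BMDM with IL6 for 3 h over GM-BMDM for the 17 genes past 2-fold, each alone (circles) and summed with the genes that share at least 20% of its 31-base words (diamonds). Dotted lines mark 2-fold, and the value for Srp54c is a bound. For 9 of the 12 genes with a partner the sum lies within 1.25-fold.

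The M-BMDM pair at 3 h shares no library with the GM-BMDM pair. It had 9 genes higher (0.0906%) and 27 lower (0.272%) at 2-fold, and 56 higher (0.564%) and 110 lower (1.11%), 1.67% in all, at 1.5-fold. Of the 33 genes 1.5-fold higher in GM-BMDM with IL6, 2 were also higher in M-BMDM with IL6, 6.06% of the GM-BMDM genes and 3.57% of the M-BMDM genes, and 5 were 1.5-fold lower. Of the 77 lower genes, 8 were also lower in M-BMDM, 10.4% of the GM-BMDM genes and 7.27% of the M-BMDM genes, and 7 were higher. Only 20 of the 33 and 57 of the 77 had 5 CPM in M-BMDM, so the rest could not be counted there. Of the 20, 8 had ratios above 0 in M-BMDM, against 52.9% of all genes with 5 CPM in both pairs. Of the 57, 43 had ratios below 0, against 47.1%. The correlations between the pairs left out mitochondrially encoded genes. Across 9562 genes with 5 CPM in both pairs, Pearson's r of the log2 ratios was 0.047 and Spearman's rho 0.140. Pearson's r was 0.180 across 6428 genes with 20 CPM and 0.115 across 1537 genes with 100 CPM. These describe genes, which are not independent replicates.

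The difference between the 2 responses went past 1 log2 unit for 37 genes (0.354%) with GM-BMDM above M-BMDM and for 39 genes (0.373%) with GM-BMDM below, out of 10457. Several were again copies, such as Entpd4 and Entpd4b. Iffo2, which overlaps Gm21969, is also uncertain: Iffo2 had 14.2 CPM with IL6 and 10.5 CPM without in GM-BMDM, and 24.3 and 45.3 CPM in M-BMDM, while Gm21969 had 6.88 and 10.1 CPM in GM-BMDM, and 15.1 and 0.107 CPM in M-BMDM. Of the others, Gphn, which encodes the scaffold gephyrin, had 74.1 CPM with IL6 and 98.4 CPM without in GM-BMDM, and 135 and 88.3 CPM in M-BMDM. Sspn, which encodes sarcospan, had 9.78 CPM with IL6 and 13.8 CPM without in GM-BMDM, and 15.9 and 10.7 CPM in M-BMDM. Cebpb, a transcription factor of the STAT3 list that overlaps Tmem189, was not among these genes. Its responses differed by less than 1 log2 unit. Cebpb was level in GM-BMDM at 131 CPM with IL6 and 136 CPM without (log2 -0.05), whereas M-BMDM had 155 and 236 CPM (log2 -0.60, -0.67 to -0.54). These differences have no replicate check.

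A response shared by both macrophage types could be tested in 1 fit of the 4 libraries with terms for cell type and IL6. Its 1 residual degree of freedom is the difference between the 2 responses, and edgeR pooled that spread fully across genes, at a biological coefficient of variation of 6.72%. A gene with unlike responses can therefore pass: Fam3b, with log2 ratios of 5.82 in GM-BMDM and -0.11 in M-BMDM, counts as having risen, and mt-Co3, with -0.21 and -1.34, as having fallen. The fit does not test GM-BMDM alone. By edgeR's quasi-likelihood test with Benjamini-Hochberg adjustment at 0.05, 29 genes rose (0.197%) and 120 fell (0.815%) of 14719. Of the 120 that fell, 116 were lower in both pairs, and of the 29 that rose, 20 were higher in both. The same 4 libraries chose these genes, so such counts are not a separate check. The labels do not tell whether the 4 libraries stem from separate cultures, and the spread behind these p-values may be technical.

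The genes that fell included nuclear RNAs and splicing genes. Malat1, a noncoding RNA of nuclear speckles (chr19:5795690-5802672), had 207 CPM with IL6 and 297 CPM without in GM-BMDM, and 584 and 872 CPM in M-BMDM. By edgeR's quasi-likelihood test its log2 change was -0.55 (SE 0.09, adjusted p = 3.86e-07). Neat1, the scaffold of paraspeckles (chr19:5824708-5845478), had 1146 CPM with IL6 and 1725 CPM without in GM-BMDM, and 874 and 1188 CPM in M-BMDM. Its log2 change was -0.52 (SE 0.09, adjusted p = 5.35e-06 by edgeR's test). In each pair the library with IL6 was the lower one for both RNAs. The list of nuclear and snoRNA host noncoding RNAs had 18 of 20 members below 0 in GM-BMDM (median -0.20, against -0.25 in M-BMDM), and 2 of the 20, Malat1 and Neat1, fell in the fit.

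Of 31 splicing factors, 26 were below 0 in GM-BMDM (median -0.10, against -0.15 in M-BMDM) and 4 fell in the fit. A wider group of 88 genes with splicing factor names, formed after values were seen, had medians of -0.05 in GM-BMDM and -0.08 in M-BMDM, with 60 of 88 below 0 in each. Luc7l2, a partner of the U1 particle, had 76.6 CPM with IL6 and 103 CPM without in GM-BMDM, and 97.9 and 138 CPM in M-BMDM (log2 change -0.47, SE 0.08, edgeR adjusted p = 2.2e-05). Hnrnph1, which binds G-rich RNA, had 114 CPM with IL6 and 155 CPM without in GM-BMDM, and 208 and 281 CPM in M-BMDM (edgeR adjusted p = 0.000108). The other splicing factors that fell were Luc7l3 and Rbm25, with log2 changes of -0.40 and -0.34. Prpf38b, a spliceosome protein gene outside that list (chr3:108902805-108911727), had 48.9 CPM with IL6 and 71.5 CPM without in GM-BMDM, and 81.6 and 115 CPM in M-BMDM (log2 change -0.52, SE 0.09, edgeR adjusted p = 2.06e-06). Pnn, Pnisr, Srek1 and the mRNA export gene Thoc2, named after their values were seen, also fell, by 0.43, 0.46, 0.45 and 0.43 on the log2 scale.

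**Figure D5:**
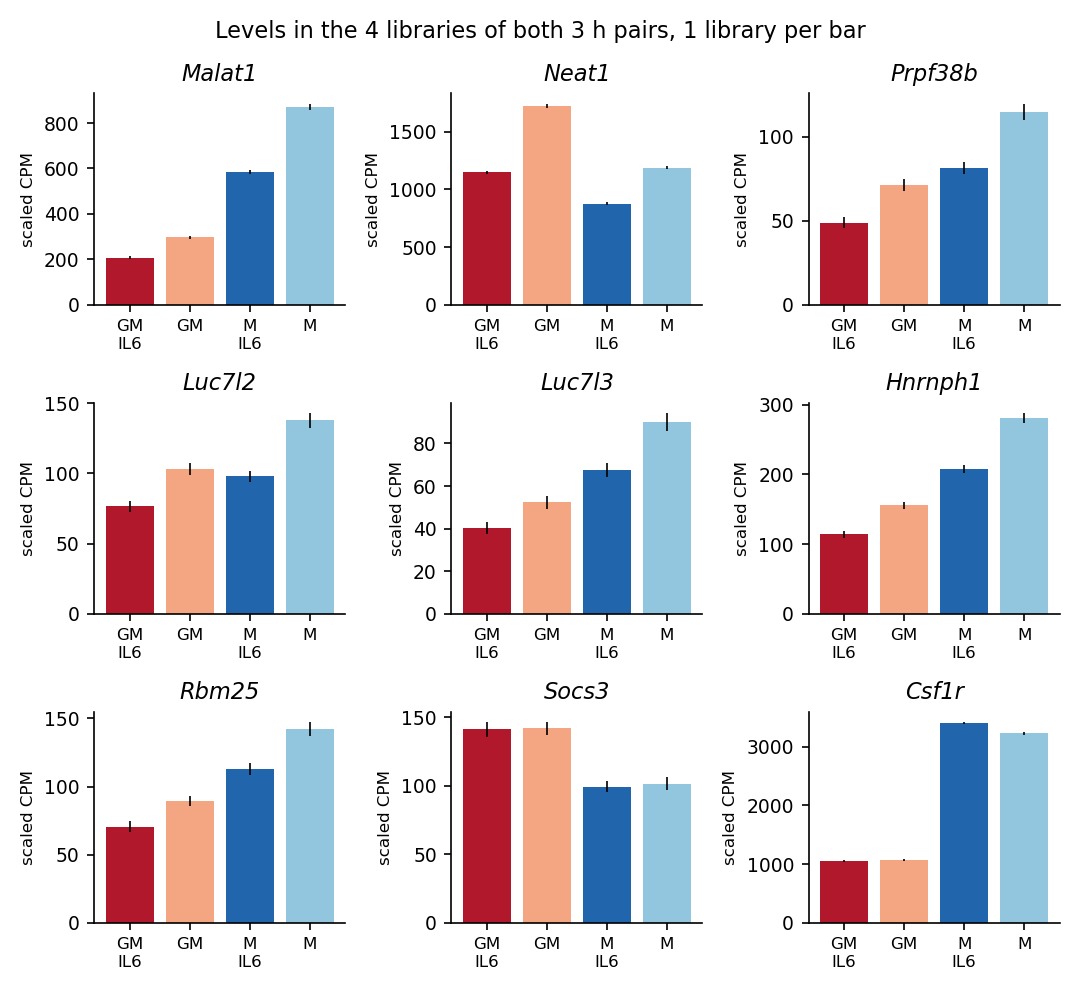
Scaled CPM in the 4 libraries of the 3 h pairs for 7 genes that fell in the fit of both pairs and for Socs3 and Csf1r. Each bar is 1 library, from left to right GM-BMDM with IL6, GM-BMDM, M-BMDM with IL6 and M-BMDM, with error bars of 95% from the square root of the count, which cover counting error only. The 7 genes are lower with IL6 in both types, and Socs3 is level in both.

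These genes were AT-rich: the median GC content of the 120 genes that fell was 41.2%, against 49.3% for all genes. The trend with GC was taken over protein-coding genes with 5 CPM in both pairs, without mitochondrially encoded ones. Those under 43.6% GC had a median log2 ratio of -0.06 in GM-BMDM and -0.14 in M-BMDM, and those over 55.1% GC had 0.02 and 0.12. With the GC trend removed, an alternative added after seeing the data, Malat1 stood at -0.50 and Neat1 at -0.62 in GM-BMDM. In GM-BMDM the splicing factor median became -0.06 and the nuclear noncoding RNA median -0.19. The uncorrected splicing factor median of M-BMDM, -0.15, was near the -0.14 of its genes under 43.6% GC. Medians also went with transcript length, in opposite directions in the 2 pairs. Genes under 2062 bases had -0.01 in GM-BMDM and 0.12 in M-BMDM, and those over 5361 bases had 0.05 and -0.10. The fit of both pairs was not run with a GC term. DESeq2's Wald test on the same design called 0 genes that rose and 4 that fell, namely mt-Co2, Malat1, Neat1 and Hnrnph1, with 185 genes at an unadjusted p under 0.05. Without a term for cell type edgeR's test called 0 genes, with 16 at an unadjusted p under 0.05.

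The genes that rose in the shared fit were mostly predicted genes, pseudogenes or copies, 18 of 29. Egln3, the oxygen sensor PHD3 that is itself induced by hypoxia, was an exception. It had 2.19 CPM with IL6 and 1.15 CPM without in GM-BMDM, and 20.4 and 11.9 CPM in M-BMDM (log2 change 0.81, SE 0.19, edgeR adjusted p = 0.00361). Most of its counts came from M-BMDM. Of 27 glycolysis and hypoxia genes it was the 1 that rose, and 0 fell. The mitochondrial gene mt-Nd3 rose as well, with 123 CPM with IL6 and 92.9 CPM without in GM-BMDM and 99.3 and 69.4 CPM in M-BMDM, but together with its nuclear copy Gm28438 the log2 ratio was 0.11 in GM-BMDM and -0.01 in M-BMDM. Of the mitochondrially encoded genes, 3 fell in the fit, among them mt-Co2 and mt-Co3. Summed with its copies Gm28661 and Gm13341, mt-Co2 had log2 ratios of -0.19 in GM-BMDM and 0.08 in M-BMDM (3538 CPM with IL6 and 3358 CPM without). Summed with its copy Gm28437, mt-Co3 had log2 ratios of -0.02 in GM-BMDM and 0.14 in M-BMDM.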

How the data were processed

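RNA sequencing of 6 mouse libraries was used, 1 per group. The authors deposited expected counts, estimates for each gene that can be fractional (24.7% to 27.7% of nonzero values per library), and these were rounded. It also held each gene's length. The submitters' processing notes name HISAT2, StringTie, DESeq2 and the GRCm38 build, without their order, versions or use of strand.

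Of 56278 rows, 742 without a gene name were left out; they held 0.240% of counts in GM-BMDM with IL6 for 3 h and 0.255% in GM-BMDM. Positions came from GENCODE M21, and promoters from RefSeq. Genes with a CPM of 1 in any library were kept (14719) and scaled by TMM (edgeR 4.0.16, limma 3.58.1, DESeq2 1.42.0, R 4.3.3, Python 3.11, scipy 1.17.1).

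Each pair was compared by the ratio of scaled counts with its exact 95% interval (Clopper-Pearson, conditional binomial). Reads carry no molecular identifiers, so PCR copies are not independent, and intervals and floors cover counting error only. Called genes needed 2-fold, an interval without 1 and 5 CPM in the higher library. The fit of both pairs used edgeR's quasi-likelihood test with cell type as a covariate. List medians used a prior count of 2. The interval of a difference between the 2 responses needed 10 counts in each library. Copies were found by shared 31-base words of transcripts.

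Genes were named by a fixed rule: the 15 highest and 15 lowest ratios at 10 CPM with established names, the 5 largest gains and 5 largest losses in CPM, list members past a threshold, the 10 largest differences between the 2 responses per direction, the 5 lowest adjusted p per direction, and pathway genes; list members outside the rule were chosen as examples after their values were seen. The comparison, lists and rules were chosen with earlier results of these data known.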

Additional observations from a re-analysis of the deposited data

Results flagged for a closer look

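For 12 genes, IL6 for 3 h went with ratios past 1.5-fold in opposite directions in GM-BMDM and M-BMDM; the difference was not tested, because each group had 1 library. The first of them were Entpd4b, with a log2 ratio of 0.65 in GM-BMDM and -1.52 in M-BMDM, and Entpd4, with -0.79 and 1.72. Srp54c had a GM-BMDM log2 ratio of -5.83 or lower, against a floor of 3 counts per library, and in M-BMDM 136 counts with IL6 and 0 counts without. Rps27rt, a copy of the ribosomal protein gene Rps27, had 1.10 in GM-BMDM and -1.08 in M-BMDM.

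The rest were predicted genes or pseudogenes. Gm45837 had -0.77 in GM-BMDM and 1.42 in M-BMDM, Gm10645 had 0.69 and -1.07, and Gm2026 had -1.16 and 0.91. 2210418O10Rik had 1.66 in GM-BMDM and -1.09 in M-BMDM, Gm13835 had -0.91 and 0.70, and Gm12537 had -1.14 and 1.31. Gm29216, a copy of mt-Co1, had -0.63 in GM-BMDM and 0.67 in M-BMDM, and Gm48111 had 0.68 and -1.10.

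Of these 12 genes, 11 had a partner sharing at least 20% of their 31-base words, and for 10 of the 11 the summed level in GM-BMDM was within 1.25-fold. The exception was Gm2026, whose set had 19.8 CPM with IL6 and 32.9 CPM without (log2 -0.73). A sum with abundant partners stays near level whatever the gene does. Gm12537, for example, had 4.15 CPM with IL6 and 9.15 CPM without, in a set with 2425 and 2729 CPM.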

How the results depend on the processing

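With scaling by DESeq2 size factors, total counts or upper-quartile factors, with no filter or a filter at 5 CPM, with no interval needed, or with the GC trend removed (added after seeing the data), 15 to 20 genes passed 2-fold in GM-BMDM and 34 to 38 in M-BMDM. Scaling moved the median log2 ratio of all genes by under 0.1. In GM-BMDM, 110 genes passed at 1.5-fold, 8 at 3-fold, 221 at 2-fold with a minimum of 1 CPM and 1 with a minimum of 20 CPM; in M-BMDM these counts were 166, 10, 285 and 4. At 1.5-fold in GM-BMDM, 483 genes passed with a minimum of 1 CPM and 10 with 20 CPM. Of list genes, 3 passed at 1.5-fold, 0 at 3-fold and 3 with a minimum of 1 CPM. The fit of both pairs called 107 to 147 genes with all 6 libraries, other scalings, other filters or limma-voom, but 4 with DESeq2's Wald test and 0 without the term for cell type; of its 149 calls, 104 were also called by limma-voom and 127 with all 6 libraries. Of the ratios of named genes under these alternatives, 33 moved by more than their interval and 422 did not; of list medians, 1 moved, that of the mitochondrially encoded genes, and 245 did not; 0 changed sign when called. No paired analysis was possible because the labels give no replicate numbers and each group has 1 library, and for the same reason no library could be left out of a pair. The SD of log2 ratios in GM-BMDM was 0.194 at 5 CPM or more and 0.136 at 20 CPM or more, so depth limits the lowest genes most.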

Other observations

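Transcripts known from the placenta were present at low levels in all 6 libraries. Over 30 such genes, a list written after their values were seen and so not tested, the summed level was 30.3 CPM in GM-BMDM with IL6 for 3 h and 51.1 CPM in GM-BMDM, from 555 and 1111 counts. In M-BMDM it was 43.1 CPM with IL6 for 3 h and 99.4 CPM without, from 950 and 1851 counts. The other libraries had 62.9 CPM (M-BMDM with IL6 for 24 h) and 37.5 CPM (bone marrow). Psg21, a pregnancy-specific glycoprotein gene, had 66 counts in GM-BMDM with IL6 and 143 counts in GM-BMDM. Tpbpa, a marker of spongiotrophoblast, had 65 counts with IL6 and 134 counts without in GM-BMDM, and 123 and 217 counts in M-BMDM. Of 17 such genes with at least 20 counts, 16 were lower with IL6 in GM-BMDM and 17 were lower with IL6 in M-BMDM. The source of these reads was not tested.

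Zinc finger genes named Zfp, also grouped after their values were seen, lay slightly lower with IL6. Of 226 such genes with 5 CPM, 135 (59.7%) were below 0 in GM-BMDM (median log2 -0.06) and 157 (69.5%) in M-BMDM (median -0.11). Over all 10255 genes with 5 CPM, these shares were 45.8% in GM-BMDM and 47.9% in M-BMDM. Among protein-coding genes under 43.6% GC with 5 CPM in both pairs, they were 63.9% in GM-BMDM and 82.6% in M-BMDM. The Zfp genes were not compared with genes of like GC content, so the shift is not shown to be particular to them.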
